A study of Homo sapiens with 17 samples.

Results

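The genes described here encode the FOS proteins (FOS, FOSB, FOSL1 and FOSL2), the JUN proteins (JUN, JUNB and JUND) and ATF3. They were taken by symbol from a table of 58870 entries, and 8 of 8 were found. All 8 had enough counts to be tested beside the 15365 genes tested in all. The cells were MDA-MB-231, an established human line from a triple-negative breast cancer, labelled mesenchymal and basal B, kept in serum-containing RPMI medium. They received 45 nM TRAIL, a TNF-family ligand able to start cell death through its receptors, a dose that the labels call suboptimal and that was meant to leave the cells alive. RNA was taken at 0, 1, 3, 6, 12 and 24 h, and 3 libraries per time were analysed here, or 2 for 1 h, where the labels also speak of triplicates. All 17 libraries, those at 0 h included, carry the same treatment label. A comparison with 0 h therefore joins time with TRAIL to time in culture and handling, and these cannot be told apart. The labels do not say that replicates came from separate cultures, so p-values measure the spread between these libraries, which may be technical.

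FOS and JUN proteins carry a basic region that contacts DNA and a leucine zipper through which they pair. The pairs form the transcription factor AP-1, which binds the site TGACTCA and, with some partners, the related cyclic AMP response element (CRE) TGACGTCA. JUN proteins can pair with each other, whereas FOS proteins need a JUN or another partner. FOS, FOSB, JUN, JUNB and ATF3 are known as immediate-early or stress-response genes, whose transcripts are short-lived. FOSL1, also called FRA-1, is known for its abundance in mesenchymal breast cancer lines.

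Total counts ran from 13731520 to 19234924 per library. The labelled cell type was checked against markers. The 7 basal B markers summed to 6892 to 8624 CPM, although SPARC had at most 17 counts. CPM are counts relative to the library total, which was left unscaled for the markers and scaled for all later values. The 7 luminal and receptor genes summed to 80.3 to 101 CPM, with ERBB2 at 54.2 to 75.0 CPM, EPCAM at 12.9 to 19.9 and GATA3 at 6.99 to 12.2. Of the others, CDH1 had at most 16 counts, ESR1 at most 2, and PGR and FOXA1 at most 1. The 6 immune markers summed to 1.30 to 2.57 CPM, with CD3E at 0 in all libraries, and the 4 endothelial markers to 2.27 to 7.69 CPM. Libraries differed along the time course in other ways: mitochondrial transcripts took 7.99% to 8.97% of counts after 3 h, 3.66% to 4.14% after 24 h and 5.53% to 8.37% at 0 h. The slope of library deviations on transcript length was lowest in replicate 2 of 3 h (-0.14 log2 per doubling of length) and highest in replicate 2 of 24 h (0.14). The part of these differences in the results below was not tested except through the offsets for length and GC content named there. Replicates 2 and 3 were unusually alike after 6 h and after 24 h, with a chi-square per gene of 1.52 and 1.69 against 4.09 to 16.1 in other pairs, and were kept as separate libraries.

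The 8 transcripts did not move as one group. JUNB, FOSL1 and JUN were highest after 3 h, ATF3 was highest after 1 h, FOS and FOSB were low after 3 h and 12 h but not after 6 h, FOSL2 was highest after 24 h, and JUND was lower late. Over all 6 times, 8 of 8 members changed (F-test of edgeR's quasi-likelihood fit, adjusted p from 6.8e-10 for JUNB to 6.7e-04 for JUND). Of all genes tested, 64.2% did so.

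**Figure D1:**
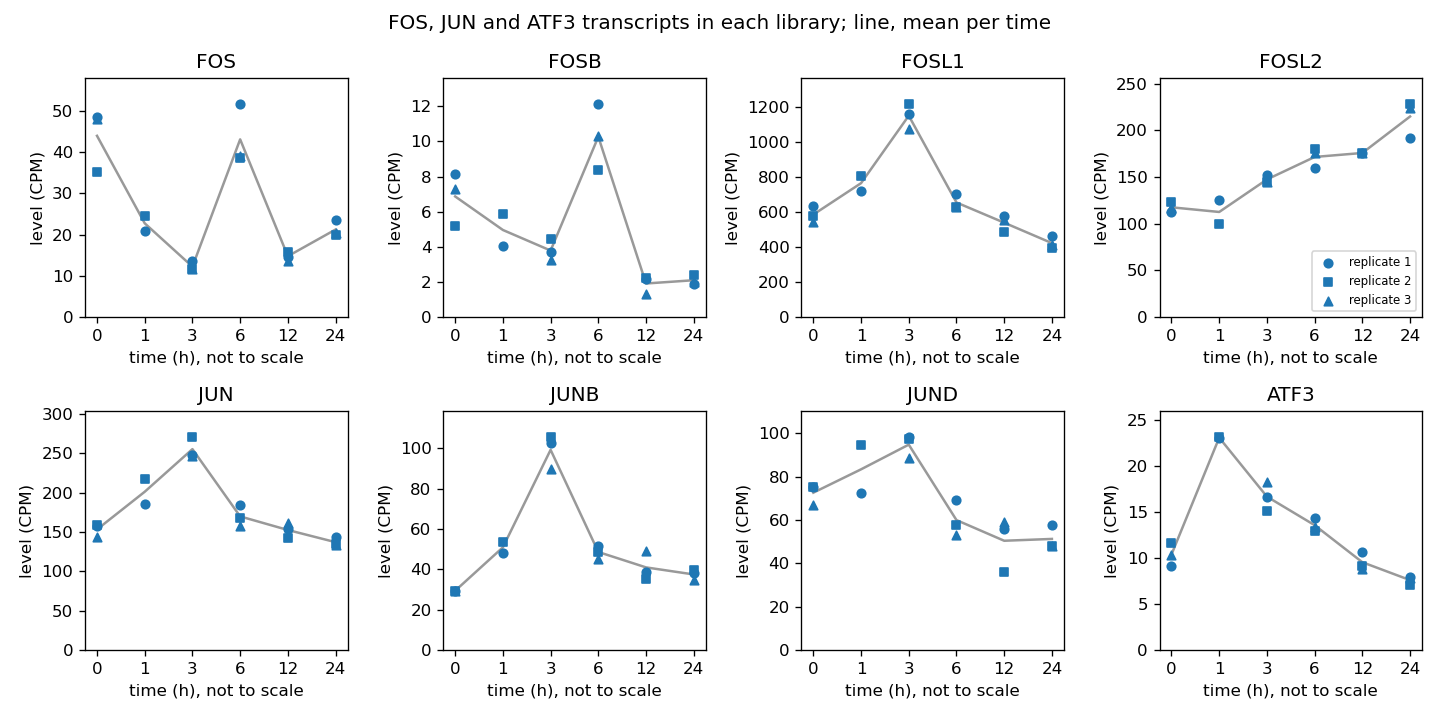
Level of each transcript (CPM, linear axis from 0) in each of the 17 libraries against time with TRAIL, with one panel per gene, one symbol shape per replicate number and a line through the means. FOS and FOSB fall, return after 6 h and fall again, while FOSL1, JUN and JUNB have their highest points after 3 h and FOSL2 after 24 h.

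Short stretches before the start sites of 6 members are shown because they hold the CRE or its relatives, which AP-1 and ATF family proteins can bind. The sequences are from RefSeq (GRCh38.p14), 30 bases each on the gene's strand, 5′ to 3′, with the matched motif in capitals.
JUN: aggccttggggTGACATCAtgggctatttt
ATF3: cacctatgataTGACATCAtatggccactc
JUND: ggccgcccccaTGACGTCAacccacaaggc
FOS: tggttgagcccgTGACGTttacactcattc
FOSB: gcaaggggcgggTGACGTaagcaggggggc
FOSL2: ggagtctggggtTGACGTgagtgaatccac
The JUN stretch lies at chr1:58784096-58784125 on the minus strand, with its motif 67 to 60 bases before the start. The ATF3 stretch lies at chr1:212565273-212565302 on the plus strand, with the same 8 letters 123 to 116 bases before a start. The JUND stretch, at chr19:18281804-18281833 on the minus strand, holds the full CRE 200 to 193 bases before the start. The FOS stretch is at chr14:75278752-75278781, the FOSB stretch at chr19:45467924-45467953 and the FOSL2 stretch at chr2:28392780-28392809, all on the plus strand. Their TGACGT lies 64 to 59, 60 to 55 and 66 to 61 bases before the start.

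The windows searched were the 250 bases before each RefSeq start, on both strands, with 8 windows for 7 of the members (ATF3 has 2) and 35116 in all. TGACATCA, a variant of the AP-1 site known from the JUN promoter, was in 2 member windows (JUN and ATF3) and in 2.37% of all windows. Because the variant was taken from the JUN promoter, its match there was fixed in advance and cannot be set against that share. The CRE TGACGTCA was in 1 member window (JUND) and in 1.65% of all. The shorter TGACGT, which overlaps the CRE and was added after the sequences were seen, was in 4 member windows and in 7.10% of all. In the JUND window it lies within the CRE and also, on the other strand, 87 to 82 bases before the start. The AP-1 site TGACTCA (4.20% of all windows), the NF-kB consensus (5.21%) and the CArG box bound by SRF (1.16%) were in 0 member windows. Bases farther upstream or after the start were not searched, so the counts of 0 do not show that these genes lack such sites. At these shares of all windows, 0 of 8 is not unusual. These matches describe letters, not binding. The 4 members whose windows hold TGACGT, FOS, FOSB, FOSL2 and JUND, had different courses, given below.

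FOS is the founding member of its family and a textbook immediate-early gene. Its transcript was lower after 1 h and after 3 h than at 0 h. No library was taken between 0 h and 1 h, so a brief earlier rise could not be seen. FOS (chr14:75278774-75282230, plus strand, GENCODE 29) stood at 48.6, 35.3 and 48.0 CPM in the 0 h libraries, 20.9 and 24.6 after 1 h, and 13.6, 11.6 and 11.5 after 3 h. After 6 h it was 51.7, 38.6 and 39.0, after 12 h 14.7, 15.9 and 13.7, and after 24 h 23.5, 19.9 and 20.3. The 6 h libraries overlap those at 0 h, and every library at 1, 3, 12 and 24 h lies below every 0 h library. Against 0 h the FOS log2 fold change was -0.95 after 1 h (SE 0.148, edgeR adjusted p 0.0027), -1.85 after 3 h (6.0e-08), -1.57 after 12 h (9.0e-07) and -1.05 after 24 h (2.1e-05). Its call after 1 h was not made without replicate 1 of 1 h (-0.83, adjusted p 0.118).

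After 6 h the FOS level was not told apart from that at 0 h (log2 fold change -0.03, 95% interval -0.29 to 0.23, edgeR adjusted p 0.880). The return was tested against the neighbouring times. FOS was 3.52-fold higher after 6 h than after 3 h (log2 1.82, SE 0.142, edgeR adjusted p 1.6e-07) and 2.91-fold lower after 12 h than after 6 h (-1.54, 5.1e-07). From 1 h to 3 h it fell by 0.89 on the log2 scale (0.00252).

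FOSB, a close relative of FOS, was the least abundant of the 8, with as few as 24 counts in a library. FOSB (chr19:45467995-45475179, plus strand) stood at 8.15, 5.17 and 7.28 CPM at 0 h, 4.05 and 5.87 after 1 h, and 3.71, 4.43 and 3.23 after 3 h. It was 12.1, 8.36 and 10.3 after 6 h, 2.19, 2.21 and 1.33 after 12 h, and 1.87, 2.42 and 2.00 after 24 h. All 6 h libraries lie above all others, and the 12 h and 24 h libraries lie below all others. Against 0 h, FOSB fell by 0.86 after 3 h (log2, edgeR adjusted p 0.00827), by 1.85 after 12 h (2.7e-05) and by 1.71 after 24 h (2.4e-05). After 1 h its log2 fold change of -0.47 did not pass the test (0.955).

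The FOSB rise after 6 h over 0 h was 0.58 on the log2 scale (SE 0.181, edgeR adjusted p 0.0210). It was not called without replicate 2 of 0 h (0.41, 0.112), replicate 1 of 6 h (0.45, 0.0880) or replicate 3 of 6 h (0.58, 0.0633). The steps around 6 h were larger. FOSB was 2.72-fold higher after 6 h than after 3 h (log2 1.44, edgeR adjusted p 5.0e-05) and 5.38-fold lower after 12 h than after 6 h (-2.43, 3.8e-07). FOSB lies within the span of ERCC1 on the opposite strand, which had up to 1543 counts. The libraries kept strand, but the strand setting of the counting is not given in the sources used here, so reads of the pair could not be told apart if strand was not used.

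FOSL1 encodes FRA-1, which pairs with JUN proteins and lacks the strong activation domain of FOS. It was the most abundant of the members in every library. FOSL1 (chr11:65892049-65900573, minus strand) stood at 635, 579 and 541 CPM at 0 h, 721 and 807 after 1 h, and 1158, 1216 and 1073 after 3 h. It was 703, 630 and 629 after 6 h, 578, 485 and 552 after 12 h, and 462, 395 and 409 after 24 h. Every 3 h library lies above all others and every 24 h library lies below all others. FOSL1 was 1.96-fold higher after 3 h than at 0 h (log2 0.97, SE 0.0815, edgeR adjusted p 8.2e-08) and 1.39-fold lower after 24 h (-0.47, 3.0e-04, and -0.27, 5.8e-05, with offsets for length and GC content).

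After 1 h both FOSL1 libraries were above the 0 h libraries, with a log2 fold change of 0.39 that did not pass the test (edgeR adjusted p 0.0963). It was called by DESeq2 (0.38, adjusted p 0.0166), with no filter (0.38, 5.6e-05) and with length and GC offsets (0.35, 1.3e-04). After 6 h and 12 h FOSL1 was at 0.16 and -0.12 (0.140 and 0.360), and the 6 h value was called with length and GC offsets (0.34, 3.4e-06). Between neighbouring times FOSL1 rose by 0.59 from 1 h to 3 h (log2, edgeR adjusted p 4.5e-04) and fell by 0.81 from 3 h to 6 h (1.4e-06). It fell by a further 0.28 to 12 h (0.0193) and 0.35 to 24 h (0.00976). The step to 12 h was not called without replicate 1 of 6 h (-0.22, 0.0720) or replicate 2 of 12 h (-0.21, 0.0941).

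FOSL2 encodes FRA-2, the closest relative of FRA-1. Its course differed from that of the other FOS genes. FOSL2 (chr2:28392448-28417312, plus strand) stood at 112, 123 and 117 CPM at 0 h, 125 and 100 after 1 h, and 152, 145 and 145 after 3 h. It was 159, 180 and 175 after 6 h, 176, 176 and 175 after 12 h, and 192, 228 and 224 after 24 h. The libraries from 3 h on lie above all those at 0 h and 1 h, and those after 24 h above all others. Against 0 h, FOSL2 rose by 0.33 after 3 h (log2, edgeR adjusted p 0.00696), 0.54 after 6 h (5.5e-05), 0.58 after 12 h (6.5e-05) and 0.87 after 24 h (SE 0.0767, 2.7e-07). After 1 h its log2 fold change was -0.06 (95% interval -0.24 to 0.12), and it was 0.084 without replicate 2 of 1 h.

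JUN is the partner with which the other AP-1 proteins most often pair, and its own promoter holds AP-1-like sites. JUN (chr1:58780788-58784327, minus strand) stood at 158, 159 and 143 CPM at 0 h, 185 and 217 after 1 h, and 248, 271 and 247 after 3 h. It was 184, 167 and 158 after 6 h, 154, 142 and 161 after 12 h, and 144, 134 and 133 after 24 h. The 3 h libraries lie above all others, and the libraries of each time from 6 h on overlap those at 0 h. JUN was 1.67-fold higher after 3 h than at 0 h (log2 0.74, SE 0.0721, edgeR adjusted p 8.6e-07) and fell by 0.59 from 3 h to 6 h (1.3e-05). Its log2 fold changes of 0.15 after 6 h, -0.01 after 12 h and -0.16 after 24 h did not pass the test (0.128, 0.963 and 0.0901). After 6 h it was called with length and GC offsets (0.17, 0.0466).

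The JUN rise after 1 h was small (log2 0.39, SE 0.0798, edgeR adjusted p 0.0327) and was lost in 11 of 30 alternatives. Without any one of the 0 h libraries the adjusted p lay between 0.0640 and 0.205, and without replicate 2 of 1 h the log2 fold change was 0.27 (1.00). It was also lost without replicate 1 of 3 h (0.0584) or replicate 2 of 6 h (0.0503).

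JUNB had the largest rise among the members after 3 h. The protein pairs like JUN but activates many AP-1 sites less strongly. JUNB (chr19:12791496-12793315, plus strand) stood at 29.2, 29.5 and 29.5 CPM at 0 h, 48.1 and 53.7 after 1 h, and 102, 106 and 89.7 after 3 h. It was 51.8, 48.8 and 45.2 after 6 h, 38.7, 35.3 and 48.9 after 12 h, and 38.1, 39.6 and 34.7 after 24 h. Every later library lies above every 0 h library. JUNB was 1.73-fold higher after 1 h (log2 0.79, SE 0.111, edgeR adjusted p 6.5e-04) and 3.37-fold higher after 3 h (1.75, SE 0.0995, 3.5e-10).

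JUNB stayed above 0 h at later times by smaller amounts. Its log2 fold change was 0.72 after 6 h (edgeR adjusted p 5.2e-05), 0.48 after 12 h (0.00469) and 0.35 after 24 h (0.0125). The 24 h call was not made without replicate 2 of 24 h (0.31, 0.0588), and the value was 0.62 with length and GC offsets (1.7e-06). From 3 h to 6 h JUNB fell by 1.03 on the log2 scale (edgeR adjusted p 7.3e-07). Its counts were not whole numbers in 4 libraries, unlike those of the other members. HOOK2, which overlaps JUNB on the opposite strand, had at most 129 counts, against at least 470 for JUNB.

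JUND encodes the JUN protein that many resting cells hold at a steady level. JUND (chr19:18279760-18281622, minus strand) stood at 75.3, 75.3 and 67.1 CPM at 0 h, 72.3 and 94.4 after 1 h, and 98.3, 97.4 and 88.5 after 3 h. It was 69.1, 57.4 and 53.2 after 6 h, 55.7, 36.2 and 59.3 after 12 h, and 57.6, 48.2 and 48.0 after 24 h. Its libraries spread widely within some times, and in the order of mean levels each time overlaps its neighbours. The 3 h libraries lie above every 0 h library and those after 12 h and 24 h below them, while those after 1 h and 6 h overlap them. Against 0 h, JUND was called lower after 12 h (log2 -0.53, SE 0.158, edgeR adjusted p 0.0421) and 24 h (-0.50, SE 0.159, 0.0246). From 3 h to 6 h JUND fell by 0.66 (0.00373), a step of -0.33 with offsets for length and GC content (0.0111).

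The late JUND calls were weak. With offsets for length and GC content they were not made after 12 h (-0.26, adjusted p 0.0844) or after 24 h (-0.14, 0.302), and JUND has the highest GC content of the 8 (69.7% of its transcript). The 12 h call was lost in 14 of 30 alternatives, with -0.34 (0.115) without replicate 2 of 12 h. The 24 h call was lost in 6 alternatives, among them those without replicate 1 of 0 h (-0.48, 0.0804), replicate 2 of 0 h (-0.47, 0.0624), replicate 2 of 24 h (-0.46, 0.0900) and replicate 3 of 24 h (-0.46, 0.0841). Averaging the near-identical replicates of 6 h and 24 h also lost it (-0.47, 0.0901). The JUND value of 0.38 after 3 h (edgeR adjusted p 0.103) was called by DESeq2 (0.38, 0.0448), with the offsets (0.31, 0.0234), with no filter (0.36, 9.5e-05), in a fit of the 3 h and 0 h libraries alone (0.39, 0.0022) and without replicate 2 of 12 h (0.38, 0.0170).

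ATF3, a stress-induced member of the ATF/CREB family that pairs with JUN proteins, was highest after 1 h. ATF3 (chr1:212565334-212620777, plus strand) stood at 9.15, 11.6 and 10.3 CPM at 0 h, 23.0 and 23.1 after 1 h, and 16.6, 15.1 and 18.2 after 3 h. It was 14.3, 12.9 and 13.4 after 6 h, 10.7, 9.13 and 8.77 after 12 h, and 7.90, 7.06 and 7.81 after 24 h. The libraries at 1, 3 and 6 h lie above every 0 h library, those after 12 h overlap them and those after 24 h lie below them. ATF3 was 2.22-fold higher after 1 h (log2 1.15, SE 0.110, edgeR adjusted p 3.8e-06) and 1.61-fold higher after 3 h (0.68, 1.7e-04).

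After 6 h ATF3 was still higher (log2 0.39, edgeR adjusted p 0.00947), but not without replicate 1 of 0 h (0.30, 0.0630). After 12 h its value was -0.13 (0.467), and after 24 h it was 1.37-fold lower than at 0 h (-0.45, SE 0.112, 0.00462). ATF3 fell from 1 h to 3 h (log2 -0.47, 0.0127), which was not called without either 1 h library (0.0939 and 0.0762) or replicate 2 of 3 h (0.0557). It fell by 0.51 from 6 h to 12 h (0.00178).

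**Figure D2:**
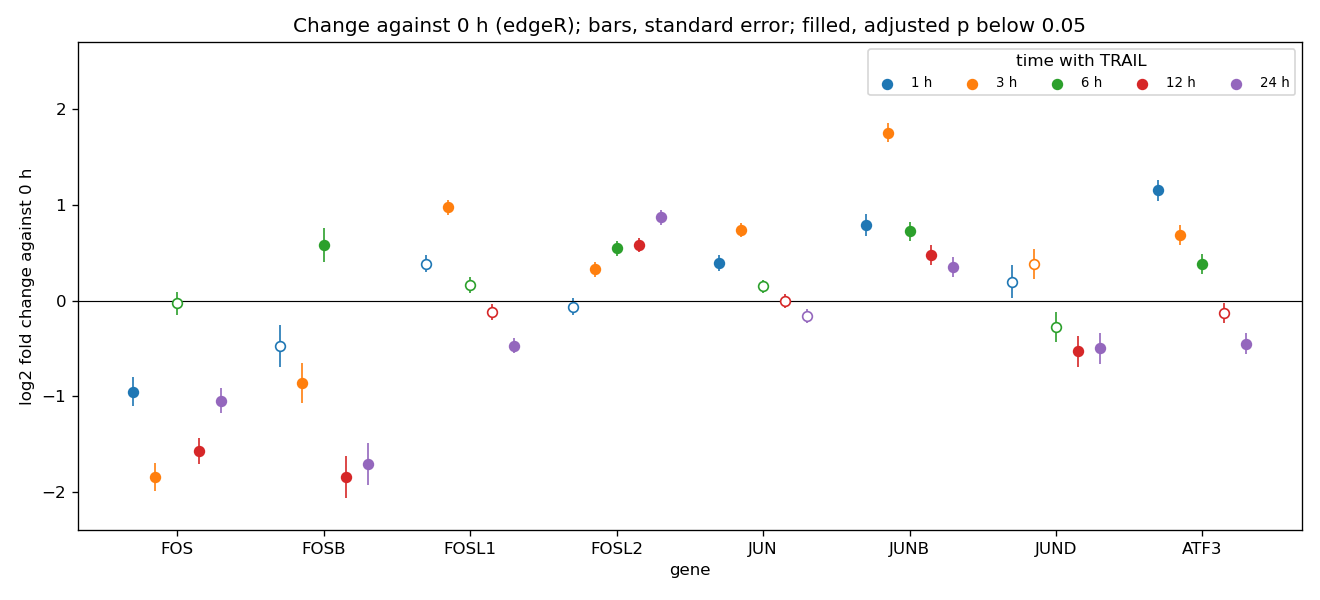
Log2 fold change against 0 h for each gene at 1, 3, 6, 12 and 24 h (colours), with bars of 1 standard error from the edgeR fit and filled points where the adjusted p is below 0.05. JUNB after 3 h (1.75) is the highest point, and FOS after 3 h (-1.85) and FOSB after 12 h (-1.85) are the lowest.

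Counted by time, 3 members were higher and 1 was lower after 1 h (edgeR, adjusted p below 0.05), where 0.260% of all genes tested were higher and 0.0521% lower. The higher ones were ATF3, JUNB and JUN, and the lower one was FOS. After 3 h, 5 members were higher (JUNB, FOSL1, JUN, ATF3 and FOSL2) and 2 lower (FOS and FOSB), beside 9.04% and 8.71% of all genes. The members' median log2 fold change was 0.29 after 1 h and 0.53 after 3 h, beside -0.0041 for all genes at both times.

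After 6 h, 4 members were higher (JUNB, FOSB, FOSL2 and ATF3), beside 16.9% of all genes. None was lower by edgeR, DESeq2 or limma-voom, with 0 at an unadjusted p below 0.05, beside 13.2% of all genes. After 12 h, 2 were higher (FOSL2 and JUNB) and 3 lower (FOSB, FOS and JUND), beside 5.96% and 6.48%. After 24 h the same 2 were higher, and 5 were lower (FOSB, FOS, JUND, FOSL1 and ATF3), beside 18.0% and 17.1%. The members' median was 0.27 after 6 h, -0.12 after 12 h and -0.46 after 24 h, and that of all genes was -0.022, -0.0032 and -0.0017. These 5 comparisons share the 0 h libraries, so their counts are not independent of each other.

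Between neighbouring times the members moved most from 3 h to 6 h, when 3 rose (FOS, FOSB and FOSL2) and 5 fell (JUNB, FOSL1, JUND, JUN and ATF3), beside 22.9% and 20.3% of all genes. The rise of FOSL2 (log2 0.22, edgeR adjusted p 0.0263) was not called with length and GC offsets (0.061, 0.356) or without replicate 2 or 3 of 3 h or replicate 2 or 3 of 6 h (0.0662 to 0.107). The fall of ATF3 (-0.30, 0.0217) was not called with the offsets (-0.15, 0.204) or without replicate 3 of 3 h or replicate 2 or 3 of 6 h (0.0664 to 0.0934). With the near-identical replicates of 6 h and 24 h averaged, neither step was called (0.18, 0.114 for FOSL2 and -0.28, 0.0724 for ATF3). Nor was FOSL2 called with upper-quartile scaling (0.16, 0.0839), or ATF3 with library size only (-0.23, 0.0810) or no filter (-0.27, 0.0707).

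From 1 h to 3 h, 4 rose (JUNB, FOSL1, FOSL2 and JUN) and 2 fell (FOS and ATF3), beside 3.17% and 2.56%. The steps of JUN (log2 0.34, edgeR adjusted p 0.0146) and FOSL2 (0.39, 0.0111) were not called without replicate 1 of 1 h for JUN (0.23, 0.327) and replicate 2 of 1 h for FOSL2 (0.24, 0.180), nor was that of JUN without replicate 2 of 3 h (0.30, 0.0591). From 6 h to 12 h, 4 fell (FOSB, FOS, ATF3 and FOSL1), beside 11.9%, and 0 rose by edgeR, DESeq2 or limma-voom, with 0 at an unadjusted p below 0.05, beside 8.70%.

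From 12 h to 24 h, 2 members rose (FOS, log2 0.52, edgeR adjusted p 0.0231, and FOSL2, 0.29, 0.0186) and FOSL1 fell, beside 6.42% and 5.60% of all genes. None of these 3 was called when the like 6 h and 24 h replicates were averaged (0.56, 0.0619 for FOS, 0.25, 0.119 for FOSL2 and -0.32, 0.0760 for FOSL1). With length and GC offsets the FOSL2 step was 0.16 (0.0273). Single libraries also decided them. Without replicate 2 or 3 of 24 h, or replicate 1 of 12 h, none of the 3 was called, and without replicate 3 of 12 h FOS and FOSL2 were not called, nor was FOS without replicate 1 of 24 h.

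Levels of different genes are compared per kilobase of the longest protein-coding transcript. At 0 h the order was FOSL1 (350 ± 28.4 CPM per kb, SD, n = 3), JUN (43.3 ± 2.41), JUND (39.0 ± 2.55), FOS (20.4 ± 3.50), FOSL2 (17.5 ± 0.814), JUNB (16.2 ± 0.0762), ATF3 (5.10 ± 0.616) and FOSB (1.82 ± 0.406). JUN and JUND were separated by less than the sum of their SDs, and so were FOS and FOSL2. After 3 h FOS stood at 5.67 ± 0.539 CPM per kb, below ATF3 (8.19 ± 0.755), and JUNB at 54.5 ± 4.63 was beside JUND at 50.8 ± 2.88. In bulk RNA, fewer cells with a transcript and less of it per cell cannot be told apart.

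The 7 FOS and JUN transcripts together summed to 458 to 523 CPM per kb at 0 h, 838 to 944 after 3 h and 366 to 409 after 24 h, with no overlap between these times. FOSL1 made up 70.7% to 72.8% of that sum at 0 h, 74.1% to 74.6% after 1 h, 76.8% to 77.2% after 3 h and 64.7% to 67.6% after 24 h. After 6 h and 12 h its share was 71.3% to 72.2% and 70.7% to 73.0%, overlapping that at 0 h, while the sum was 522 to 590 and 404 to 475 CPM per kb. FOS held 3.37% to 4.86% at 0 h and 0.568% to 0.696% after 3 h. JUNB held 3.07% to 3.54% at 0 h, 5.88% to 6.23% after 3 h and 5.12% to 5.94% after 24 h. FOSL2 held 3.20% to 3.81% at 0 h and 6.99% to 9.29% after 24 h. It has the longest transcript of the 8 (6708 bases). After 24 h its share was 6.99% in replicate 1, where the slope on transcript length was 0.024. It was 9.29% and 9.01% in replicates 2 and 3, where the slope was 0.14 and 0.13. The shares were not recomputed with length and GC offsets, so the part of such slopes in them was not tested. Shares of transcripts say nothing of the proteins, which were not measured.

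**Figure D3:**
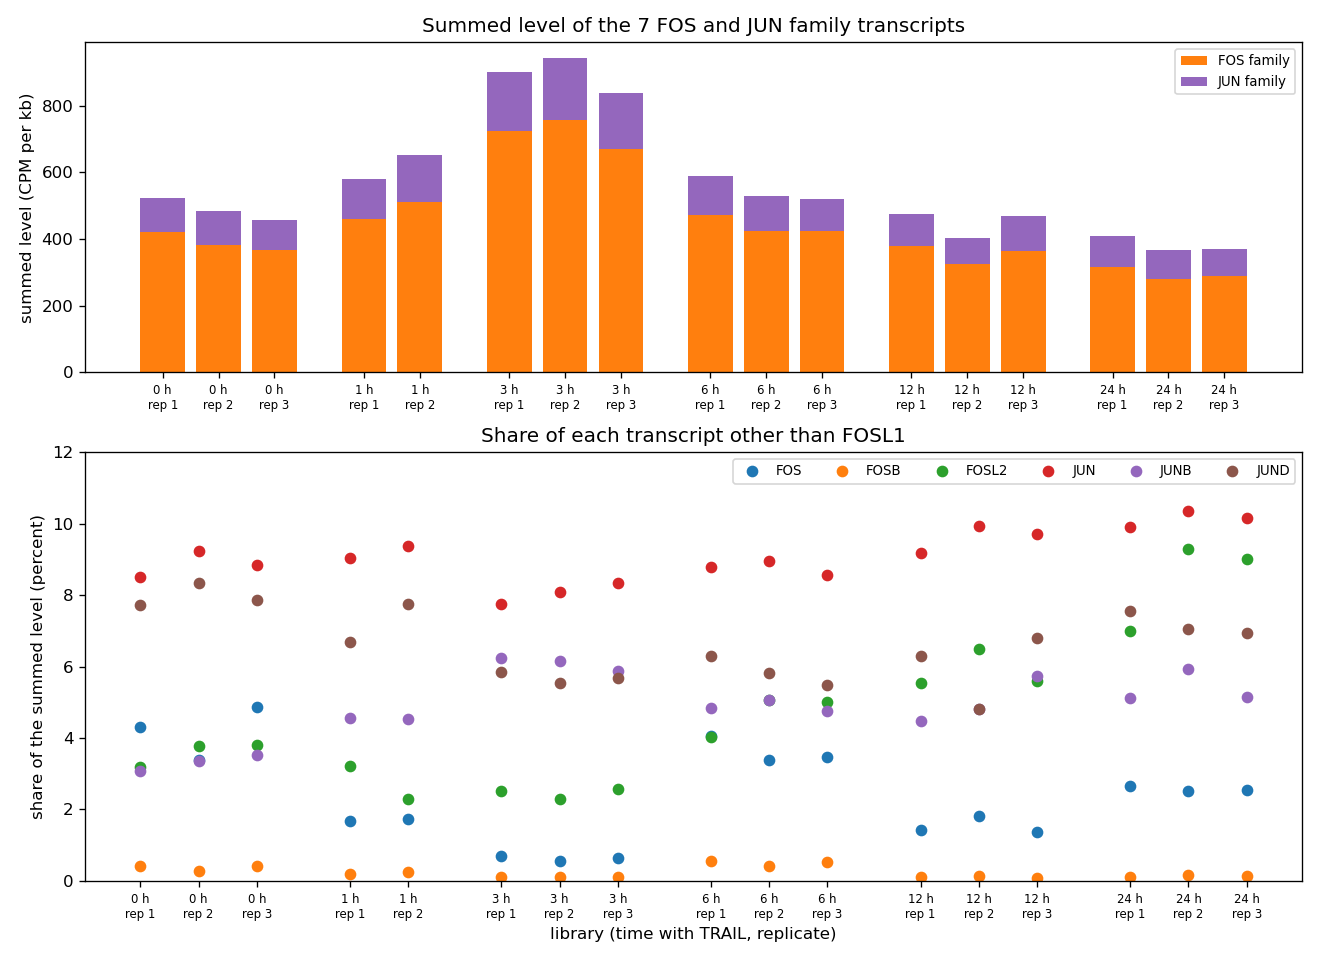
Upper panel, stacked bars from 0 of the summed level of the 4 FOS and 3 JUN transcripts (CPM per kb) in each library; lower panel, share of that sum (percent) held by each transcript other than FOSL1, which is left off because its share of 64.7% to 77.2% would flatten the scale. The sum is highest after 3 h, where the share of FOS is lowest. The mean share of JUNB is highest there too, but replicate 2 of 24 h (5.94%) lies above replicate 3 of 3 h (5.88%).

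Genes with the most similar courses were sought among 8699 others that changed over the 6 times and had an average log2 CPM of at least 2. Likeness was the root mean square difference of the 5 log2 fold changes against 0 h, which share the 0 h libraries. This difference was not scaled to the size of the changes, so members with small changes find near neighbours more readily. Nearest to JUNB were TNFAIP3 (0.231), ZC3H12A (0.244) and NFKBIA (0.262), 3 genes known as inhibitors in the NF-kB and inflammatory RNA pathways. Nearest to ATF3 were CSRNP1 (0.304), AC091057.6 (0.330) and CCN1 (0.341). FOSL1 had much closer neighbours in MIR22HG (0.0727), SIK1B (0.0883) and RGMB-AS1 (0.101), as had JUN in ZNF121 (0.0692), CLUHP3 (0.0922) and MIR137HG (0.0940).

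FOSL2 was nearest to RGPD8 (0.124), SIX4 (0.134) and CSF1 (0.136), and JUND to CHCHD10 (0.0505), MESP1 (0.0619) and SAA1 (0.0662). FOS and FOSB, whose changes were large, had no close neighbour by this unscaled measure. The nearest to FOS were MYH16 (0.639), ARPC4-TTLL3 (0.715) and TBCE (0.754), none of which had its return to the 0 h level after 6 h, since their log2 fold changes there were -0.51, -0.29 and -0.45. The nearest to FOSB were C3 (0.460), C4B (0.538) and AC092683.1 (0.637).

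Other leucine-zipper proteins that can pair with these members were measured as a list of 12 genes, of which 11 were tested. After 1 h and after 12 h, 0 passed the test by edgeR, DESeq2 or limma-voom, with 2 and 1 at an unadjusted p below 0.05. Of all genes, 0.260% were higher and 0.0521% lower after 1 h, and 5.96% and 6.48% after 12 h, so 0 of 11 is near these shares. With length and GC offsets, 1 was called after 1 h. After 3 h, 3 were higher and 1 lower, beside 9.04% and 8.71% of all genes. MAFF, a small MAF protein without an activation domain, rose from 29.6 ± 1.72 CPM (SD, n = 3) to 48.0 ± 1.47 (log2 0.70, edgeR adjusted p 2.4e-06), MAFK rose by 0.44 (0.0015) and JDP2, a repressor that pairs with JUN, fell by 0.60 (0.00278). After 6 h, 4 were higher, beside 16.9% of all genes, led by MAFG (0.51, 1.2e-05), ATF7 (0.30, 0.0195) and MAFF (0.28, 0.00941). None was lower by edgeR, with 1 at an unadjusted p below 0.05, beside 13.2% of all genes. After 24 h, 3 were higher and 2 lower, beside 18.0% and 17.1% of all genes, among them ATF2 (0.43, 0.0208), BATF3 (-0.42, 0.0215) and JDP2 (-0.34, 0.0312). The count of 5 after 24 h fell to 2 without replicate 2 of 0 h and to 3 without replicate 1 of 0 h or replicate 2 or 3 of 24 h. The list median lay between -0.059 and 0.13 at all 5 times.

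A list of 20 kinases of the MAP kinase pathways and of SRF and its partners, which act upstream of FOS and JUN, had 1 member higher after 1 h, 2 after 3 h, 7 after 6 h, 2 after 12 h and 7 after 24 h. Of all genes, 0.260%, 9.04%, 16.9%, 5.96% and 18.0% were higher at these times, so that 2 of 20 after 3 h is near the share of all genes. The numbers lower were 0, 2, 1, 0 and 1, with 0 and 1 at an unadjusted p below 0.05 after 1 h and 12 h, beside 0.0521%, 8.71%, 13.2%, 6.48% and 17.1% of all genes. With length and GC offsets, 7 rather than 4 were called after 3 h. SRF, which binds the CArG box of immediate-early genes, rose from 146 ± 5.35 CPM (n = 3) to 184 ± 1.23 after 1 h (n = 2, log2 0.34, edgeR adjusted p 0.0030) and 203 ± 2.57 after 3 h (0.47, 1.9e-06). After 1 h no list member was called without either 1 h library. MAP2K3, a kinase that activates p38, rose by 0.59 after 3 h (1.5e-06) and 0.40 after 6 h (1.0e-04), and MAP3K5 fell by 0.40 after 3 h (0.0282). MAP2K4, a kinase that activates JNK, rose by 0.39 after 6 h (0.00182), 0.33 after 12 h (0.0143) and 0.43 after 24 h (7.0e-04), and MAPK14 by 0.24 after 12 h (0.0389).

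After 24 h MAP3K1 (log2 0.45, edgeR adjusted p 0.00611) and MAP3K5 (0.39, 0.0105) were also higher. The gene called lower after 6 h, MAP2K6, had 0 to 16 counts per library, so its fold is not given. The 8 calls after 6 h fell to 4 without replicate 3 of 6 h and to 5 without any one of the 0 h libraries or replicate 2 of 6 h. The 2 after 12 h fell to 0 without replicate 1 or 2 of 0 h or replicate 2 of 12 h, and to 1 without replicate 3 of 0 h, replicate 1 of 3 h or replicate 1 or 3 of 12 h. The 8 after 24 h fell to 5 without replicate 3 of 24 h. Counts also rose when other libraries were left out. The full ranges were 4 to 12 after 6 h, 0 to 3 after 12 h and 5 to 11 after 24 h. The list median was -0.054, -0.0058, 0.22, 0.10 and 0.18 at the 5 times.

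The list of genes known as AP-1 targets had 24 measured genes, of which 20 were tested. MMP3, MMP9, MMP10 and SPP1 had at most 12 counts in any library and were not tested. Another gene planned for the list was not found by symbol and is not counted. Of the 20, 3 were higher after 1 h, 9 after 3 h, 13 after 6 h, 6 after 12 h and 6 after 24 h. The shares of all genes higher were 0.260%, 9.04%, 16.9%, 5.96% and 18.0%. The numbers lower were 0 (1 at an unadjusted p below 0.05), 1, 2, 4 and 4, beside 0.0521%, 8.71%, 13.2%, 6.48% and 17.1% of all genes. The median log2 fold change was 0.022, 0.21, 0.30, -0.0048 and -0.018. CXCL8, a chemokine gene, went from 11.3 ± 2.46 CPM at 0 h (SD, n = 3) to 57.4 ± 4.53 after 3 h, 37.7 ± 3.61 after 6 h and 24.7 ± 2.08 after 12 h, with log2 fold changes of 2.34, 1.73 and 1.13. Its edgeR adjusted p was 4.5e-11, 6.1e-09 and 6.6e-06. IL11, a cytokine gene of the IL6 family, rose by 1.48 after 3 h (1.1e-10), 1.00 after 6 h (5.9e-08), 0.79 after 12 h (4.2e-06) and 1.15 after 24 h (7.2e-09). Many of these targets are also known targets of NF-kB, and which factor acts on them was not tested.

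The targets did not follow one course. HBEGF, an EGF receptor ligand, and GADD45A, a stress gene, rose with IL6 after 1 h (log2 0.43, 0.77 and 0.84, edgeR adjusted p 0.00125, 5.8e-05 and 5.8e-04). IL6 was also higher by 0.84 after 24 h (1.5e-05), when GADD45A, chosen for this time after its values were seen, had fallen by 0.81 (2.4e-06). DUSP1, a phosphatase of MAP kinases and an immediate-early gene, fell by 0.72 after 12 h (1.5e-06). With values at other times chosen after they were seen, DUSP1 was at -0.18 after 3 h (0.0728), 0.72 after 6 h (2.7e-07) and -0.52 after 24 h (2.2e-05), so it too was higher after 6 h than before and after. MMP1, a collagenase gene, was at -0.23 after 3 h (0.0543) and rose by 0.82 after 24 h (5.0e-07), and was also chosen after its values were seen.

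**Figure D4:**
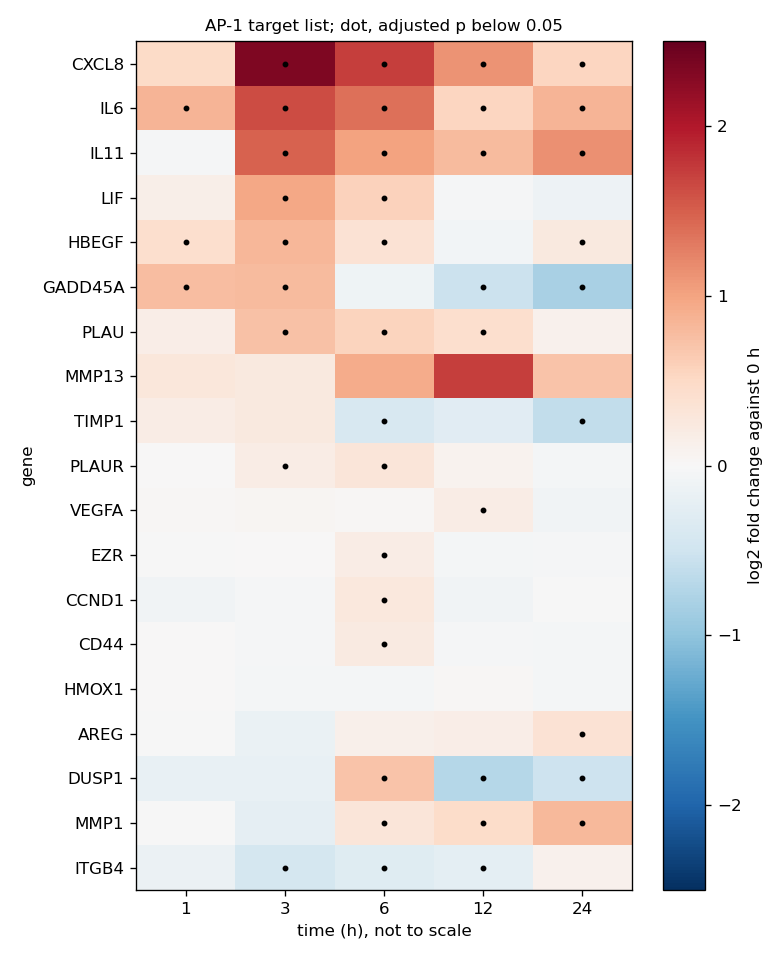
Log2 fold change against 0 h (colour scale) of 19 of the 20 tested genes on the list of AP-1 targets (rows) at 1, 3, 6, 12 and 24 h (columns), with a dot where the edgeR adjusted p is below 0.05. CXCL8, IL6 and IL11 are higher at all times from 3 h on, while GADD45A turns from higher at the first times to lower at 12 h and 24 h; MMP13, without a dot, had at most 15 counts.

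The fourth list held 14 genes of the integrated stress response and p53 response, in which ATF3 is known to take part. After 1 h, 1 was higher, PPP1R15A, which encodes a phosphatase subunit that reverses eIF2alpha phosphorylation (202 ± 7.55 CPM at 0 h, n = 3, and 306 ± 12.9 after 1 h, n = 2, log2 0.60, edgeR adjusted p 1.5e-05). None was lower, with 0 at an unadjusted p below 0.05. Of the list, 2 were higher and 3 lower after 3 h, 5 and 4 after 6 h, 2 and 4 after 12 h, and 4 and 7 after 24 h. Of all genes, 9.04% were higher and 8.71% lower after 3 h, 16.9% and 13.2% after 6 h, 5.96% and 6.48% after 12 h, and 18.0% and 17.1% after 24 h, and 0.260% were higher after 1 h. With length and GC offsets, 11 rather than 5 passed the test after 3 h, and after 12 h the count of 6 was 3 without replicate 1 of 0 h and 2 without replicate 2 of 12 h. The median was 0.054, 0.015, 0.021, -0.026 and -0.29 at the 5 times.

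Genes of the list moved in both directions. CHAC1, a glutathione-degrading enzyme gene, fell by 1.04 after 3 h (log2, edgeR adjusted p 1.3e-04), 0.60 after 12 h (0.0106) and 1.44 after 24 h (3.4e-06). SESN2 fell by 0.61 after 3 h (8.5e-04) and 0.42 after 12 h (0.0122), DDIT3 by 0.49 after 6 h (0.00294) and TRIB3 by 0.74 after 24 h (5.2e-06). ATF4 itself, named after its value was seen, stood at 0.18 after 1 h (0.941) and fell by 0.57 after 24 h (1.4e-05). CDKN1A, the p53 target that encodes p21, rose by 0.96 after 6 h (1.2e-09). EIF2AK3, which encodes the kinase PERK, rose by 0.55 after 6 h (0.0173) and 0.87 after 24 h (5.7e-04). PPP1R15A was still higher after 3 h (0.54, 2.5e-06) and lower after 12 h (-0.51, 1.5e-05).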

How the data were processed

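RNA was sequenced from stranded, poly(A)-selected, paired-end libraries, per the labels' protocols. The authors deposited 1 table of gene-level expected counts, made with RSEM per the file name, not scaled to depth or length. The submitters' processing notes name cutadapt 1.18, STAR 2.7.0f and the build hg38. The annotation release and strand setting are not given in the sources used here. Of the expected counts, 10.8% were not whole, and all were rounded. Fragments carry no molecular identifiers, so counting error may understate the error.

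Genes passing filterByExpr of edgeR 4.0.16 (R 4.3.3) were scaled by TMM (factors 0.939 to 1.06) and fitted by robust quasi-likelihood with 1 mean per time over all 17 libraries. P-values were adjusted by the Benjamini-Hochberg method over 15365 genes and called below 0.05. Standard errors come from the coefficient and F statistic. The script was tested on simulated data. Positions, lengths and GC content are from GENCODE 29 (GRCh38, that is hg38), where 58597 entries matched ignoring the identifier version.

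The members and lists were chosen with earlier results of these data known. All members were named, and from each list the 3 largest changes called at each time against 0 h. One gene of the AP-1 target list is counted in the list but not reported here. For ATF7, which has 2 entries, the one with more counts was used. Alternatives were other scalings and filters, DESeq2 1.42.0, limma-voom (3.58.1), non-robust estimation, 2-group fits, the replicate number as a block, unrounded counts, averaged near-identical replicates, length and GC offsets, and each library left out. Protein sequences were not analysed here.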

Additional observations from a re-analysis of the deposited data

How the results depend on the processing

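Each value was recomputed under 30 alternatives, 13 that changed a setting and 17 that left out 1 library. FOS at 6 h against 0 h, close to 0, turned to 0.028 with near-identical replicates averaged and 0.072 with length and GC offsets, and JUN at 12 h to 0.026 with library size only and 0.029 with the offsets. With 1 library left out, FOS at 6 h ran from -0.18 to 0.048, JUN at 12 h from -0.060 to 0.042, FOSL2 at 1 h from -0.23 to 0.084 and JUND at 1 h from -0.011 to 0.38. From 6 h to 12 h FOSL2 ran from -0.015 to 0.070, and from 12 h to 24 h FOSB ran from -0.071 to 0.28, JUNB from -0.23 to 0.021 and JUND from -0.17 to 0.17. None of these 8 values passed the test, and the cause was not tested.

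The count of members lower at 6 h was 1 with no filter and 1 in a fit of only the groups compared, and such a fit of 3 h and 1 h called 2 higher and 1 lower. From 12 h to 24 h, 0 were higher and 0 lower with replicates averaged, and 2 lower with upper-quartile scaling. With 1 library left out the counts were 0 to 1 lower at 1 h, 1 to 2 higher at 24 h, 1 to 2 lower from 1 h to 3 h, and 0 to 2 higher and 0 to 1 lower from 12 h to 24 h. A lone 1 h library was assumed to vary like the other groups. Other counts of members stayed within 1.5 times of the value given.

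Replicate numbers did not pair the samples (mean correlation of deviations 0.0091 for the same number and -0.0045 for others, with 7 of 17 libraries closest to their own number). With the replicate number as a block, 2 members were higher at 1 h (JUN 0.37, adjusted p 0.0694) and 2 lower at 12 h (JUND -0.53, 0.0586), and no other count of members changed. Depth limits FOSB most, with 24 counts in its lowest library.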
